A study of Mus musculus with 15 samples.

Results

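The genes described here are 36 markers and non-collagen matrix products of hepatic stellate cells and fibroblasts, out of 24074 genes with a symbol on the array. They were chosen by name, as the probes that are not controls and whose gene name is one of the 36. The 36 genes have 42 probes. Of the genes, 32 have a single probe and Fbln1, Sparc, Tnc and Vcan have several. For each gene the brightest probe, on average over all arrays, is given, with the other probes where they differ from it.

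In the healthy liver, stellate cells lie between hepatocytes and sinusoids, store vitamin A and are called quiescent. After chronic injury they can turn into myofibroblasts, which contract and lay down collagen, elastic fibres and adhesive glycoproteins. Fibroblasts around the portal tract and bile ducts are a further source of matrix, and the fibrous tissue of tumors is built by such cells. By role, the genes comprise 6 of quiescent stellate cells or pericytes, 4 of the contractile machinery, 5 of the cell surface and cytoskeleton, 5 small proteoglycans (their partner dermatopontin included), 7 of elastic fibres, 7 adhesive and matricellular proteins and 2 vitamin K dependent proteins. A set of 16 myofibroblast genes, taken across these roles, was set against the 6 quiescent genes.

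RNA was taken from whole liver tumors of C57/BL6J mice, with 1 array per tumor and 5 tumors per group. The p53f/f HCC were hepatocellular carcinomas of control mice whose Trp53 alleles were floxed but not deleted, the p53LKO HCC were the same tumor type in mice with Trp53 deleted in the liver, and the p53LKO ICC were intrahepatic cholangiocarcinomas of mice with that deletion. All 3 groups had received CCl4, a hepatotoxin that causes fibrosis, at 0.5 µl per g of body weight in olive oil over 16 weeks. The study's text names male mice for the HCC arrays and does not describe the ICC arrays. The age of each animal at collection and the promoter that drove the Cre are not given in the sources used here. The paper reports that tumors formed later in p53f/f than in p53LKO mice. Age at collection may therefore differ between the genotypes, and it cannot be told apart from the loss of p53. The p53f/f tumors came from 4 mice, since mouse 3717 gave 2, and 4 of the p53LKO mice gave both an HCC and an ICC. In bulk tumor RNA, fewer cells of a type and less RNA per cell cannot be told apart.

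A level below is on the log2 scale after subtraction of the 75th percentile of the array, so a level of 0 is as bright as that percentile. Levels of different genes are not compared with each other, because probes differ in brightness. A gene was called higher or lower where limma gave a difference of over 2-fold with an adjusted p below 0.05, the adjustment being made over all probes tested. Values per tumor are listed in the order 3681 T1, 3715 T2, 3716 T1, 3717 T1 and 3717 T2 for p53f/f HCC, 3976 T1, 5283 T7, 3731 T2, 3733 T1 and 3975 T4 for p53LKO HCC, and 3731 T3, 3733 T3, 3976 T8, 3977 T5 and 5283 T20 for p53LKO ICC, with mouse before tumor. Errors are SD over the 5 tumors of a group for levels and SE for differences.

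On single arrays, 37.0% to 70.1% of probes were well above background, as the scanner software judges it, and none was saturated. There were 2 slides, each with 2 rows of arrays. The share was 55.1% to 70.1% on the 8 arrays of the upper row and 37.0% to 47.0% on the 7 of the lower row. The numbers of arrays with detection given below therefore move with the row as well as with the group. So can the levels of dim probes. A Vcan probe that was not well above background on any array was at -7.30 to -5.86 in the upper row. In the lower row it was at -5.47 to -3.93, so values near background are not comparable between rows. The upper row held all p53f/f HCC and the lower row all ICC, so row and group cannot be told apart between these groups, whereas the p53LKO HCC lay in both rows. The Trp53 probe was lower by 2.08 ± 0.24 (log2, SE) in p53LKO HCC than in p53f/f HCC, without overlap of the tumors, but the array files place this probe on another chromosome than Trp53, so it is an uncertain check of the deletion. Of 7 cholangiocyte markers tested, Krt19, Krt7 and Epcam were called higher in ICC than in p53LKO HCC, against 13.2% of all genes. Epcam was not well above background in any p53LKO HCC. The 36 genes themselves were well detected: 24 were well above background on all 15 arrays. The other 12 were Lrat, Reln, Des, Cnn1, Fap, Fmod, Dpt, Fbln1, Eln, Mfap5, Tnc and Thbs2.

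In HCC, loss of p53 went with called differences in 7 of these genes. Compared with p53f/f HCC, p53LKO HCC had higher levels of Dpt, Lum, Pdgfra, Sparc and Gas6, and lower levels of the elastic microfibril genes Mfap4 and Mfap5. The Dpt values in p53f/f HCC were mostly, and the Mfap5 values in p53LKO HCC all, not well above background. Another Sparc probe was lower. Of 35 genes tested, 5 were called higher and 2 lower, against 5.23% and 10.7% of the 17678 genes tested in all. In either direction that is 7 of 35, against 15.9% of all genes. The 28 genes not called had differences from -0.84 to 1.34, of which 20 were positive. The median difference of the 35 genes was 0.57, beside 0.07 for all genes tested. The tumors of the groups did not overlap for 1 gene in the higher direction and 2 in the lower, against 8.22% and 11.2% of all genes. Tnc was too dim in both HCC groups to be tested.

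How the arrays were scaled moved the counts in HCC, for these genes as for all. The spike-in probes as the reference, which shifted the median of all genes by 0.78, gave 17 higher and 1 lower, against 37.8% and 4.11% of all genes. Scaling to that percentile taken over well detected probes only, those above background on every array, which shifted that median by -0.25, gave 1 higher and 2 lower, against 2.48% and 15%. With the row of the slide as a block, 3 were higher and 2 lower, against 4.53% and 10.6%, and in the upper row alone 2 were higher and 2 lower, against 4.54% and 10.7%. The methods' t-test did not call Lum, Pdgfra and Sparc, and the Mann-Whitney test did not call these or Gas6. With the slide as a block there were 2 and 2, against 4.94% and 9.92% of all genes, and on slide 1 alone 2 and 1, against 2.02% and 7.32%. On slide 2 alone, with 1 p53f/f tumor, 0 of all 16314 genes tested were called, so no call could hold there. The count of higher genes was 1 without p53f/f tumor 3717 T1 or without p53LKO tumor 3976 T1 or 3975 T4, 2 without 3731 T2, and 3 without 3681 T1 or 3716 T1, while with any 1 tumor left out 4.02% to 6.68% of all genes were called higher.

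ICC and HCC of the same genotype differed in 19 of the genes. Genes of elastic fibres, fibulins, thrombospondins, tenascin C, decorin, lumican and matrix Gla protein were higher in ICC, while the contractile genes and most genes of quiescent stellate cells were not called. Of the 36 genes, all of which were tested, 19 were called higher, against 13.2% of the 16821 genes tested. With limma 0 were called lower, also at an unadjusted p under 0.05 and with the methods' t-test and the Mann-Whitney test, against 15.3% of all genes. The median difference of the 36 genes was 1.42, beside -0.17 for all genes. For 12 genes every ICC lay above every p53LKO HCC and for 0 below, against 10.9% and 19.9% of all genes.

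The 17 genes not called between ICC and p53LKO HCC had differences from -1.22 to 1.59, of which 8 were positive and 9 negative. With the row as a block 15 genes were called higher, against 10.4% of all genes, and among the arrays of the lower row alone 17, against 11.7%. With the slide as a block the count was 18, against 12.8%, and on slide 2 alone 17, against 10.9%. Slide 1 alone held 2 HCC and 1 ICC, so the ICC had no spread of its own there and a count of calls is not given. With the mouse as a replicate block over the 4 mice that gave both tumors, 19 genes were called higher, against 12.3% of all genes, and Lrat was called lower. The methods' t-test called 15 genes higher, against 10.6%, without Rgs5, Fap, Fmod and Efemp1, and the Mann-Whitney test 17, against 10.3%, without Fmod and Efemp1.

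**Figure D1:**
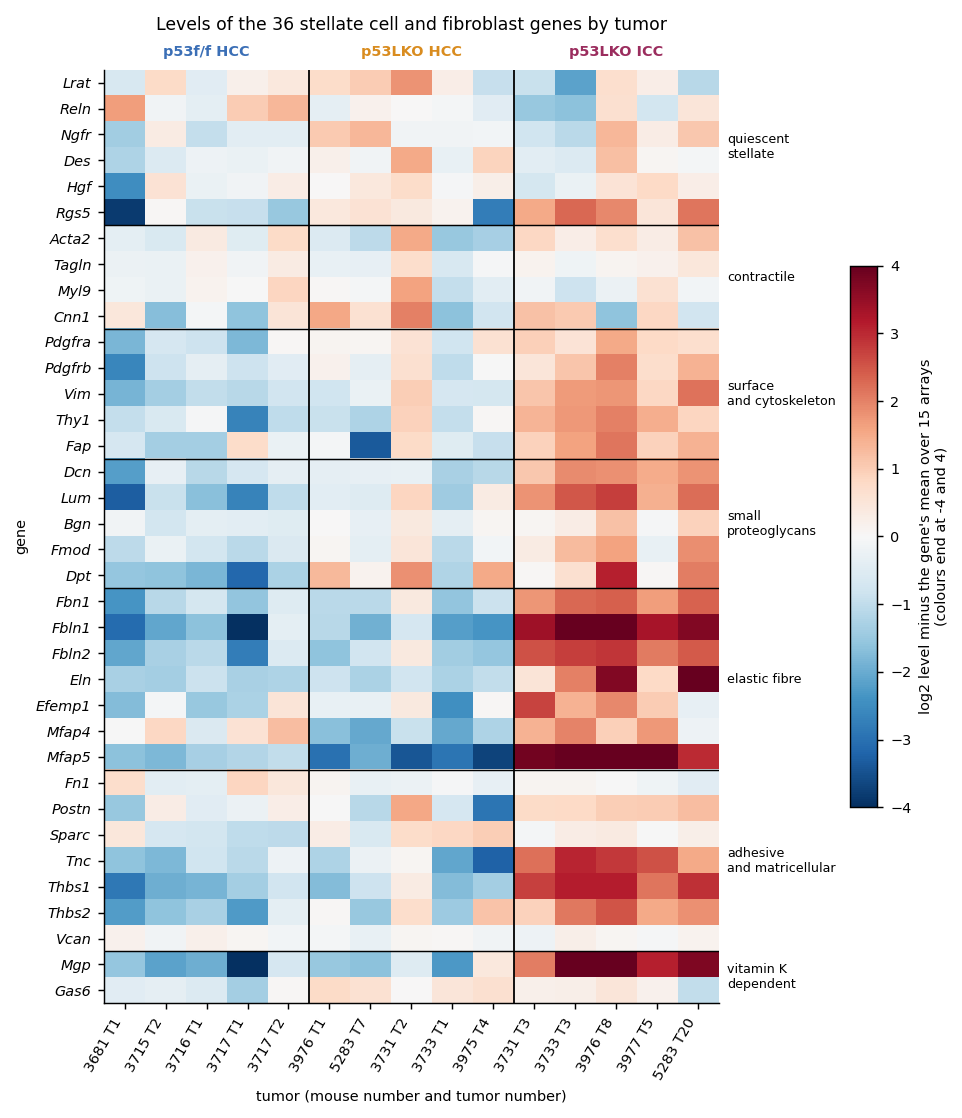
Levels of the 36 genes (rows, ordered by role) in the 15 tumors (columns, by group), as the log2 level minus the mean of the gene over all 15 arrays. Colours end at -4 and 4. The elastic fibre genes are red in all ICC for Fbln1, Fbln2, Fbn1, Eln and Mfap5, and the contractile genes show no block of one colour.

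Of the 6 markers of quiescent stellate cells, 0 were called between the HCC groups and 1 between ICC and p53LKO HCC. The 6 genes are Lrat, which encodes the enzyme that esterifies retinol for storage, Reln, an extracellular glycoprotein, Ngfr, a neurotrophin receptor, Des, the intermediate filament desmin, Hgf, the hepatocyte growth factor, and Rgs5, a G protein regulator of pericytes. With limma 0 of the 6 were called between p53LKO and p53f/f HCC, against 15.9% of all genes in either direction, and Ngfr and Des had an unadjusted p under 0.05, whereas the methods' t-test and the Mann-Whitney test also gave 0. Their median difference was 0.80, and 5 of the 6 were positive. Between ICC and p53LKO HCC 1 of the 6, Rgs5, was called higher, against 13.2% of all genes called higher and 28.4% called in either direction. The other 5 had negative differences that were not called, and the median difference of the 6 was -0.32.

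Lrat was measured by a probe on mm9 chr3:82696805-82696864. Its levels were -1.43, -0.04, -1.26, -0.59 and -0.37 in the p53f/f HCC, -0.07, 0.21, 1.01, -0.54 and -1.71 in the p53LKO HCC, and -1.68, -2.94, -0.12, -0.54 and -1.91 in ICC. The 3 groups overlapped, and the p53LKO HCC spanned the levels of most other tumors. The difference was 0.52 ± 0.46 between the HCC groups (adjusted p = 0.411, limma) and -1.22 ± 0.59 between ICC and p53LKO HCC (adjusted p = 0.114, exact permutation p = 0.103). Without HCC 3975 T4, the lowest of its group, the second difference was -1.59 with an adjusted p of 0.0405, and over the 4 mice that gave both tumors it was -1.82 with the mouse as a block (adjusted p = 0.0292).

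Reln, with a probe on mm9 chr5:21404915-21404974, had levels of -1.29, -3.13, -3.38, -1.98 and -1.65 in the p53f/f HCC, -3.35, -2.80, -2.96, -3.06 and -3.44 in the p53LKO HCC, and -4.49, -4.61, -2.35, -3.72 and -2.48 in ICC. The highest levels were in 3 p53f/f tumors, and the groups overlapped. Reln was well above background on 5, 3 and 2 arrays of these groups, so the lower values are close to background. The differences were -0.84 ± 0.39 (adjusted p = 0.118) and -0.41 ± 0.44 (adjusted p = 0.47, limma), and the first of them was -1.11 with an adjusted p of 0.0322 without p53f/f tumor 3716 T1.

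Ngfr, measured on mm9 chr11:95430211-95430270, had levels of -1.66, 0.06, -1.24, -0.69 and -0.71 in the p53f/f HCC, 0.78, 1.05, -0.41, -0.41 and -0.38 in the p53LKO HCC, and -1.08, -1.35, 1.05, 0.01 and 0.80 in ICC. The 3 groups overlapped, and the lowest tumor was a p53f/f HCC. The difference between the HCC groups was 0.97 ± 0.39 (adjusted p = 0.0784, exact permutation p = 0.0794), and it was 1.20 with an adjusted p of 0.0337 without p53f/f tumor 3715 T2. It was also called with the slide as a block (1.26, adjusted p = 0.0375), on slide 1 alone (1.80, adjusted p = 0.0471) and under the spike-in scaling (1.75, adjusted p = 0.0108). The difference between ICC and p53LKO HCC was -0.24 ± 0.51 (adjusted p = 0.725). It was -1.99 on slide 1 alone, which holds 1 ICC, and 0.53 on slide 2 alone.

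Des had levels of -4.70, -4.02, -3.68, -3.74 and -3.60 in the p53f/f HCC, -3.25, -3.62, -1.96, -3.75 and -2.57 in the p53LKO HCC, and -3.88, -4.02, -2.27, -3.38 and -3.55 in ICC. It was dim, being well above background on 3, 3 and 1 arrays, and the groups overlapped. The differences of 0.92 ± 0.36 (adjusted p = 0.0704) and -0.39 ± 0.41 (adjusted p = 0.458) were not called, although the first was 1.10 with an adjusted p of 0.0444 without p53LKO tumor 3733 T1. It was also called with the row as a block (1.19, adjusted p = 0.0499), under quantile normalization (1.51, adjusted p = 0.00752) and under the spike-in scaling (1.70, adjusted p = 0.00485).

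The remaining quiescent or pericyte genes behaved unlike each other. Hgf averaged -1.50 ± 1.21, -0.82 ± 0.32 and -0.97 ± 0.61 in p53f/f HCC, p53LKO HCC and ICC, with adjusted p of 0.312 and 0.695 in the HCC and tumor type comparisons. Rgs5 averaged 1.32 ± 1.45, 2.50 ± 1.41 and 4.42 ± 0.72. It was 3.77-fold higher in ICC than in p53LKO HCC (log2 difference 1.92 ± 0.62, adjusted p = 0.0267, exact permutation p = 0.0159), with 4 of 5 ICC above every HCC. That call was lost with the row as a block (1.18, adjusted p = 0.277) and without ICC 3733 T3 (1.76, adjusted p = 0.0607) or 3976 T8 (1.86, adjusted p = 0.0529).

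Of the contractile genes of myofibroblasts and smooth muscle, none was called between the HCC groups or between ICC and p53LKO HCC. Of all genes, 15.9% and 28.4% were called in either direction in these comparisons, so 0 of 4 is near the share of all genes. They were Acta2, the smooth muscle actin commonly used as the marker of activated stellate cells, Tagln, an actin-binding protein, Myl9, a myosin light chain, and Cnn1, calponin. With limma 0 of the 4 were called in either comparison, by the methods' t-test and the Mann-Whitney test also 0, and at an unadjusted p under 0.05 there were 0 between the HCC groups and 1, Acta2, between ICC and p53LKO HCC. Their median difference was -0.08 between the HCC groups, and 0.04 between ICC and p53LKO HCC. In the HCC comparison the sign of Acta2, Tagln and Myl9 turned from negative to positive under scaling to the spike-in probes, and that of Tagln and Myl9 also under normexp background correction.

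Acta2 (mm9 chr19:34316060-34316119) had levels of 1.26, 1.06, 2.02, 1.19 and 2.43 in the p53f/f HCC, 1.11, 0.61, 3.18, 0.13 and 0.33 in the p53LKO HCC, and 2.49, 1.91, 2.32, 1.96 and 2.84 in ICC. The p53LKO HCC 3731 T2 was the highest tumor of all 15, whereas the other 4 tumors of its group lay below all ICC. The difference between the HCC groups was -0.52 ± 0.54 (adjusted p = 0.486), and between ICC and p53LKO HCC it was 1.23 ± 0.51 with a 95% interval of 0.11 to 2.35 (adjusted p = 0.0693, exact permutation p = 0.0714). Without tumor 3731 T2 these were -1.05 (adjusted p = 0.0372) and 1.76 (adjusted p = 0.000737). With all tumors kept, the difference between ICC and p53LKO HCC was also called under quantile normalization (1.39, adjusted p = 0.0458), under the percentile of well detected probes (1.60, adjusted p = 0.0308), and with all 15 arrays in 1 model (1.23, adjusted p = 0.0453). In the lower row alone, which holds 2 p53LKO HCC and not 3731 T2, it was called as well (1.45, adjusted p = 0.0147).

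Tagln (mm9 chr9:45738097-45738156) varied little, with levels of 3.56, 3.56, 3.98, 3.66 and 4.14 in the p53f/f HCC, 3.51, 3.48, 4.53, 3.18 and 3.77 in the p53LKO HCC, and 3.96, 3.65, 3.92, 3.98 and 4.28 in ICC. Tumor 3731 T2 was again the highest of all, and the groups overlapped. The differences were -0.09 ± 0.25 (adjusted p = 0.812) and 0.27 ± 0.25 (adjusted p = 0.399), with a 95% interval of -0.27 to 0.81 for the second. Myl9 averaged 1.77 ± 0.44, 1.70 ± 0.96 and 1.52 ± 0.50 in p53f/f HCC, p53LKO HCC and ICC. Cnn1 averaged -4.08 ± 1.09, -3.24 ± 1.54 and -3.46 ± 1.25 and was well above background on 3, 3 and 1 arrays.

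**Figure D2:**
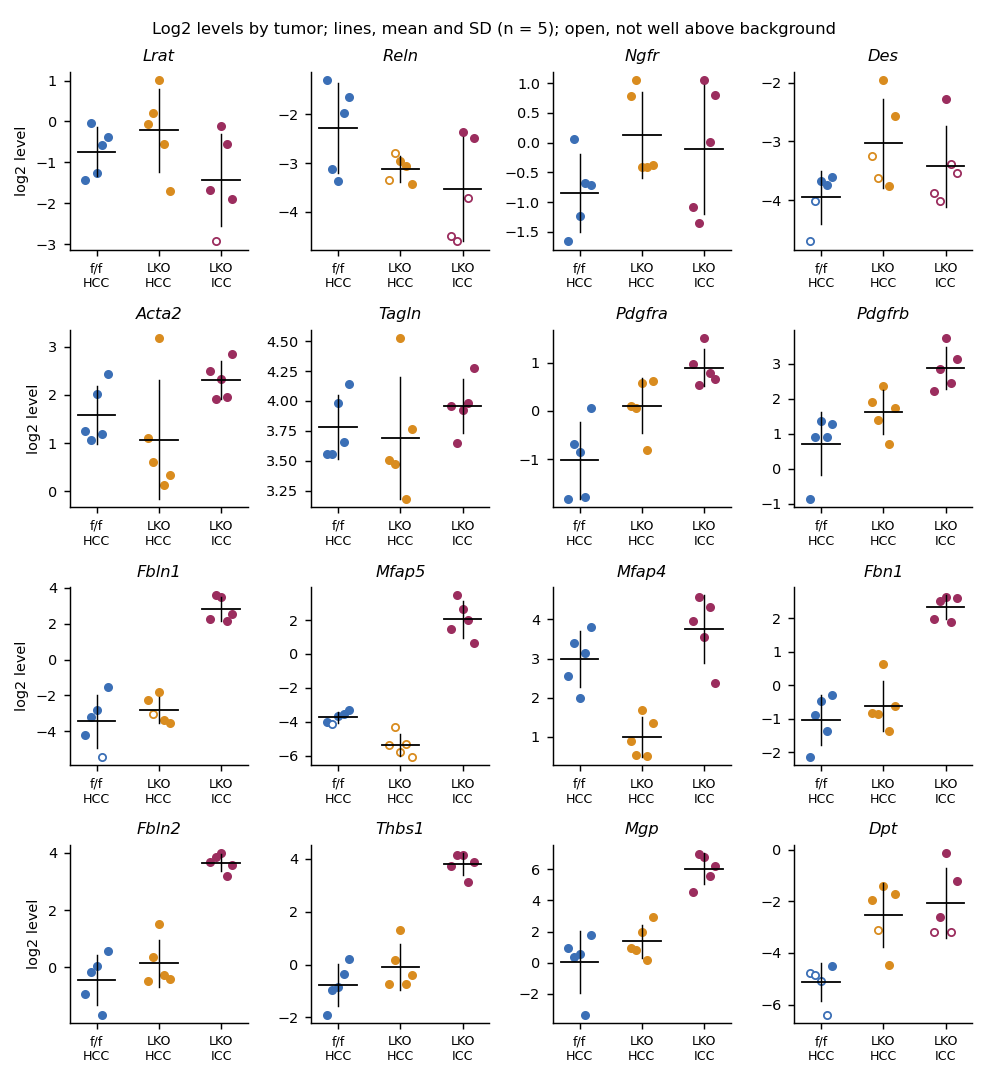
Log2 levels of 16 of the genes in each tumor, 1 panel per gene with its own axis, for p53f/f HCC, p53LKO HCC and p53LKO ICC. Points are tumors, horizontal lines means and vertical lines SD (n = 5), and open points are not well above background. Lrat, Ngfr, Des and Tagln overlap between the groups, whereas every ICC lies above every HCC for Fbln1, Mfap5, Fbn1, Fbln2, Thbs1 and Mgp.

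Among the genes of the cell surface and cytoskeleton, 4 of 5 were called higher in ICC than in p53LKO HCC, against 13.2% of all genes, with a median difference of 1.81. In HCC, p53 loss went with 1 called difference of 5, that of Pdgfra, against 5.23% of all genes called higher, and a median of 0.90. Pdgfra and Pdgfrb encode the receptors for platelet-derived growth factors, through which stellate cells and fibroblasts are stimulated to divide and migrate.

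Pdgfra (mm9 chr5:75593888-75593947) had levels of -1.83, -0.69, -0.85, -1.79 and 0.05 in the p53f/f HCC, 0.11, 0.07, 0.57, -0.81 and 0.61 in the p53LKO HCC, and 0.96, 0.54, 1.51, 0.78 and 0.66 in ICC. Of the p53LKO HCC, 4 of 5 lay above every p53f/f HCC, and 3733 T1 lay among these. The difference was 2.19-fold between the HCC groups (log2 1.13 ± 0.39, adjusted p = 0.0474, exact permutation p = 0.0397). It lost its call without each of 8 of the 10 tumors, all but 3717 T2 and 3733 T1, with adjusted p of 0.052 to 0.107 and differences of 0.93 to 1.21, and with the row (1.14, adjusted p = 0.103) or the slide (0.91, adjusted p = 0.132) as a block. Between ICC and p53LKO HCC the difference of 1.72-fold had an adjusted p of 0.0457 and stayed under the fold threshold.

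Pdgfrb had levels of -0.87, 0.92, 1.37, 0.90 and 1.29 in the p53f/f HCC, 1.91, 1.39, 2.38, 0.72 and 1.72 in the p53LKO HCC, and 2.22, 2.85, 3.75, 2.44 and 3.13 in ICC. The ICC were highest, with 4 of 5 above every p53LKO HCC, and 4 of 5 p53LKO HCC lay above every p53f/f HCC. It was 2.38-fold higher in ICC than in p53LKO HCC (log2 1.25 ± 0.35, adjusted p = 0.0147), a call that was lost with the row as a block (1.23, adjusted p = 0.0859), in the lower row alone (1.23, adjusted p = 0.0614), under the spike-in scaling (1.17, adjusted p = 0.0643) and on slide 1 alone, with 1 ICC (0.57, adjusted p = 0.483), and the difference of 0.90 ± 0.44 between the HCC groups was not called (adjusted p = 0.137).

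The other 3 genes of this role were all higher in ICC. The intermediate filament gene Vim averaged 3.27 ± 0.42 in p53f/f HCC, 4.20 ± 0.74 in p53LKO HCC and 6.01 ± 0.54 in ICC, a 3.51-fold rise from p53LKO HCC to ICC (adjusted p = 0.00306, limma). The glycoprotein gene Thy1, a marker of portal fibroblasts among other cells, averaged 0.38 ± 0.99, 1.02 ± 0.89 and 2.93 ± 0.43, and was 3.75-fold higher in ICC (adjusted p = 0.00328). Fap, a protease of activated fibroblasts, averaged -1.58 ± 0.88, -1.80 ± 1.55 and 0.41 ± 0.51 and was 4.64-fold higher in ICC, where every tumor lay above every HCC of either genotype (adjusted p = 0.0161), a call that was lost in the methods' t-test (adjusted p = 0.0692).

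Of the small proteoglycans, 3 of 5 were called higher in ICC and 2 of 5 higher in p53LKO HCC than in p53f/f HCC, against 13.2% and 5.23% of all genes. Decorin (Dcn), lumican (Lum), biglycan (Bgn) and fibromodulin (Fmod) are leucine-rich proteoglycans that bind collagen fibrils, and dermatopontin (Dpt) binds decorin. Median differences were 0.54 between the HCC groups and 1.16 between ICC and p53LKO HCC.

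Dcn (mm9 chr10:96980233-96980292) had levels of 4.10, 5.99, 5.21, 5.64 and 5.94 in the p53f/f HCC, 5.95, 5.97, 6.004, 5.02 and 5.20 in the p53LKO HCC, and 7.38, 8.20, 8.15, 7.78 and 8.11 in ICC. Every ICC was above every HCC by over 1 unit, and the HCC groups shared their range. The ICC were 4.92-fold above the p53LKO HCC (log2 2.30 ± 0.26, adjusted p = 0.000121, exact permutation p = 0.00794, the smallest that 5 against 5 tumors can give), while the HCC groups differed by 0.25 ± 0.37 (adjusted p = 0.631).

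Dpt (mm9 chr1:166753703-166753762) showed another pattern, with levels of -4.78, -4.86, -5.08, -6.39 and -4.51 in the p53f/f HCC, -1.95, -3.09, -1.42, -4.46 and -1.72 in the p53LKO HCC, and -3.20, -2.61, -0.13, -3.21 and -1.20 in ICC. All p53LKO tumors of both types lay above all p53f/f tumors, 3733 T1 by the smallest margin, and ICC and HCC of the p53LKO mice overlapped. Dpt was 6.05-fold higher in p53LKO HCC than in p53f/f HCC (log2 2.60 ± 0.57, adjusted p = 0.00573, exact permutation p = 0.00794). It was well above background on 1 p53f/f array and 4 p53LKO HCC arrays, so it passed the filter on dim probes through the higher group, and the fold rests on p53f/f values that were mostly not well above background. The call was lost under normexp background correction (0.65, adjusted p = 0.0302). With the row as a block the difference was 2.59 (adjusted p = 0.0192) and with the slide as a block 2.48 (adjusted p = 0.0184). The difference between ICC and p53LKO HCC was 0.46 ± 0.72 (adjusted p = 0.624).

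Lum rose in both comparisons, from 1.48 ± 1.05 in p53f/f HCC to 3.17 ± 0.87 in p53LKO HCC and 5.54 ± 0.54 in ICC. The rise was 3.23-fold between the HCC groups (adjusted p = 0.0327, limma) and 5.19-fold between the p53LKO tumors (adjusted p = 0.00122). The first was lost without 3681 T1, 3717 T1, 3976 T1, 3731 T2 or 3975 T4, with adjusted p of 0.0521 to 0.0754 and differences of 1.34 to 1.74, and with the row (1.85, adjusted p = 0.0567) or the slide (1.42, adjusted p = 0.0933) as a block. Fmod averaged -2.53 ± 0.34, -1.99 ± 0.58 and -0.83 ± 0.92, and its 2.24-fold rise in ICC (adjusted p = 0.0474) was lost without each of 7 of 10 tumors, all but 3731 T2, 3731 T3 and 3977 T5, with differences of 0.93 to 1.24. Bgn averaged 1.48 ± 0.22, 1.87 ± 0.31 and 2.40 ± 0.53 and was not called in either comparison.

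**Figure D3:**
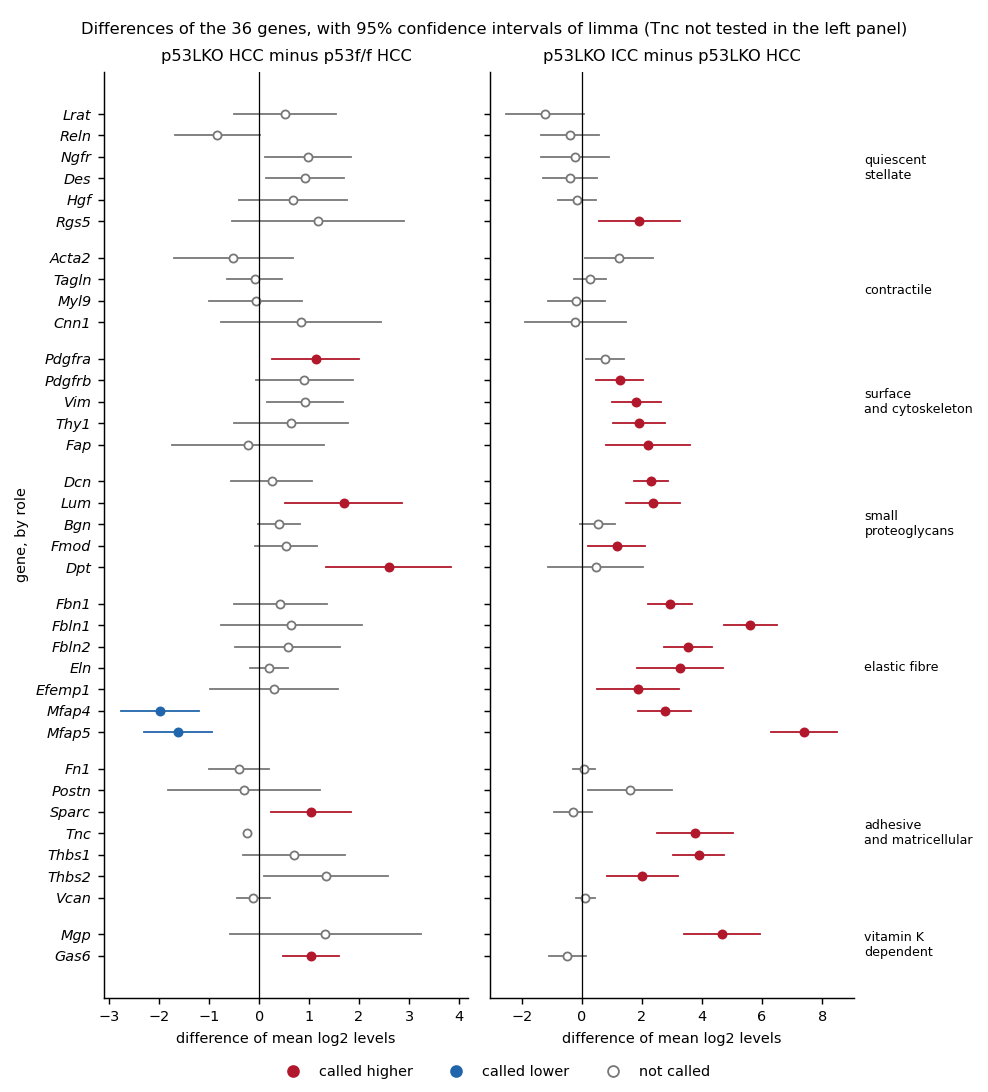
Differences of mean log2 levels of the 36 genes, between p53LKO HCC and p53f/f HCC at the left and between p53LKO ICC and p53LKO HCC at the right, with 95% confidence intervals of limma. Filled points were called. The left panel holds 5 genes called higher and 2 lower, the right panel 19 higher and 0 lower. Tnc was not tested at the left, and the fitted point of Mfap5 at the right rests on HCC values that were not well above background.

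The genes of elastic fibres stood highest in ICC relative to p53LKO HCC, and 7 of 7 were called higher, against 13.2% of all genes, with a median difference of 3.26. For 6 of the 7, all but Efemp1, every ICC lay above every p53LKO HCC, against 10.9% of all genes. Fibrillin-1 (Fbn1) forms the microfibrils on which elastin (Eln) is deposited, the fibulins Fbln1, Fbln2 and Efemp1 (fibulin-3) bind to these fibres, and Mfap4 and Mfap5 are microfibril-associated proteins. Loss of p53 in HCC went with 2 called genes of the 7, Mfap4 and Mfap5, both lower in p53LKO HCC, against 10.7% of all genes.

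Fbln1 (mm9 chr15:85115998-85116057) had levels of -4.24, -3.23, -2.80, -5.43 and -1.54 in the p53f/f HCC, -2.25, -3.06, -1.83, -3.36 and -3.52 in the p53LKO HCC, and 2.25, 3.57, 3.51, 2.16 and 2.55 in ICC. The lowest ICC was over 3 units above the highest HCC of either genotype. Fbln1 was 48.9-fold higher in ICC than in p53LKO HCC (log2 5.61 ± 0.40, adjusted p = 1.02e-05, exact permutation p = 0.00794). Its second probe was well above background on 1 p53LKO HCC array and on 5 ICC arrays, so its log2 difference of 4.30 ± 0.62 rests on HCC values that were mostly not well above background. The difference between the HCC groups was 0.64 ± 0.64 (adjusted p = 0.466). Fbln2 (mm9 chr6:91222118-91222177) had levels of -0.95, -0.18, 0.04, -1.66 and 0.57 in the p53f/f HCC, -0.48, 0.35, 1.50, -0.28 and -0.41 in the p53LKO HCC, and 3.67, 3.87, 3.99, 3.20 and 3.58 in ICC. The 5 ICC spanned less than 1 unit and lay above all HCC, 11.5-fold over the p53LKO HCC (log2 3.53 ± 0.36, adjusted p = 7.86e-05).

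Fbn1 (mm9 chr2:125126727-125126786) had levels of -2.13, -0.87, -0.48, -1.36 and -0.29 in the p53f/f HCC, -0.83, -0.84, 0.64, -1.36 and -0.61 in the p53LKO HCC, and 1.99, 2.52, 2.63, 1.90 and 2.60 in ICC. The ICC lay above all HCC and were 7.63-fold higher than p53LKO HCC (log2 2.93 ± 0.34, adjusted p = 0.000143). Eln averaged -2.28 ± 0.21 and -2.08 ± 0.24 in the HCC groups and 1.17 ± 1.66 in ICC, where the tumors ranged from -0.54 to 3.10, a 9.57-fold difference from p53LKO HCC (adjusted p = 0.00272). Efemp1 averaged 0.24 ± 0.98, 0.55 ± 1.12 and 2.41 ± 1.13, and its 3.64-fold rise (adjusted p = 0.0305) was lost with the row as a block (1.63, adjusted p = 0.174), on slide 2 alone (1.68, adjusted p = 0.127) and without 3733 T1, 3731 T3, 3733 T3 or 3976 T8, with differences of 1.38 to 1.85 and adjusted p of 0.0525 to 0.0688.

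Mfap4 and Mfap5 were the 2 genes called lower in p53LKO HCC than in p53f/f HCC. Mfap4 (mm9 chr11:61302147-61302206) had levels of 2.55, 3.41, 1.99, 3.14 and 3.81 in the p53f/f HCC, 0.90, 0.54, 1.68, 0.52 and 1.36 in the p53LKO HCC, and 3.96, 4.58, 3.54, 4.31 and 2.39 in ICC. The p53LKO HCC lay below all tumors of both other groups, which overlapped each other. Mfap4 was 3.95-fold lower in p53LKO HCC than in p53f/f HCC (log2 -1.98 ± 0.36, adjusted p = 0.00204, exact permutation p = 0.00794), and 6.76-fold higher in ICC than in p53LKO HCC (log2 2.76 ± 0.40, adjusted p = 0.000483). With the row as a block the first difference was -1.80 (adjusted p = 0.0105) and with the slide as a block -2.26 (adjusted p = 0.00154). Both calls rest on the same 5 p53LKO HCC.

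Mfap5 (mm9 chr6:122478591-122478650) had levels of -3.99, -4.15, -3.67, -3.52 and -3.32 in the p53f/f HCC, -5.34, -4.31, -5.77, -5.28 and -6.06 in the p53LKO HCC, and 1.50, 3.45, 2.64, 1.997 and 0.63 in ICC. The groups did not overlap in either comparison, but none of the p53LKO HCC values was well above background. Set against the level of the background, Mfap5 was at least 67.4-fold higher in ICC than in p53LKO HCC (adjusted p = 7.36e-06) and at least 1.23-fold lower in p53LKO HCC than in p53f/f HCC (adjusted p = 0.00283, limma). The second call was lost under normexp background correction, under scaling to the spike-in probes and on slide 1 alone (-0.99, adjusted p = 0.117). With the row as a block the difference between the HCC groups was -1.97 (adjusted p = 0.00124), again from p53LKO HCC values that were not well above background.

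RefSeq promoter windows, the 250 bases before the most upstream start of a gene in GRCm38.p6, were found for 24 of the 36 genes. Shown are those of 4 elastic fibre genes that were called together in ICC and, for contrast, of 2 contractile genes that were not. Capitals mark matches, on either strand, to the AP-1 motif TGANTCA, the TEAD motif GGAATG, the Sp1 motif GGGCGG (written CCGCCC where it lies on the other strand) and the CArG box bound by serum response factor; the matches do not overlap. The CArG box was searched in its strict form, CC, then exactly 6 letters that are all A or T, then GG, so elements that are shorter, longer or differ by a letter were not counted.
Fbln1, chr15:85205699-85205948, + strand: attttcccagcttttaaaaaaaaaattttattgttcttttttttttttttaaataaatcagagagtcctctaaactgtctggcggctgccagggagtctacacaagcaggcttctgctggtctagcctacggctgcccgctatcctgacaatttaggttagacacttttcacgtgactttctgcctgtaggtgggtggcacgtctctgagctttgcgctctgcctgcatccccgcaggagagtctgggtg
Fbln2, chr6:91212514-91212763, + strand: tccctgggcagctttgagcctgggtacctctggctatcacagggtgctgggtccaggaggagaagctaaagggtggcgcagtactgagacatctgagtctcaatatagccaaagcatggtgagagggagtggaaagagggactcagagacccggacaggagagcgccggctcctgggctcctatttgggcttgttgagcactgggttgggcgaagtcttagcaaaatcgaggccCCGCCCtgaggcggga
Fbn1, chr2:125506439-125506688, - strand: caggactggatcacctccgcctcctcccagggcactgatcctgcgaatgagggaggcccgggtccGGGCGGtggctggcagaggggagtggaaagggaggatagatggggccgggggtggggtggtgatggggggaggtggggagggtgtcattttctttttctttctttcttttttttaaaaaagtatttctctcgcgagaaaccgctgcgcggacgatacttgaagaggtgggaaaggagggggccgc
Efemp1, chr11:28852955-28853204, + strand: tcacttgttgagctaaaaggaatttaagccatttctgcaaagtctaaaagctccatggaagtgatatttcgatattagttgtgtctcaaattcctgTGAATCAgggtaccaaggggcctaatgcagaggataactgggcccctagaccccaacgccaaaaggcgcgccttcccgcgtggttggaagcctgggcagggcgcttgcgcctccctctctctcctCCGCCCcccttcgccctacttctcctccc
Acta2, chr19:34255374-34255623, - strand: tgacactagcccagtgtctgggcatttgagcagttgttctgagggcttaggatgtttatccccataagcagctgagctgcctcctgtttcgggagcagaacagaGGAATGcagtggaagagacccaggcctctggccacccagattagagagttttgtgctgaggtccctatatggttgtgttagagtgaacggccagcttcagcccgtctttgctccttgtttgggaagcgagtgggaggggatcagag
Myl9, chr2:156775214-156775463, + strand: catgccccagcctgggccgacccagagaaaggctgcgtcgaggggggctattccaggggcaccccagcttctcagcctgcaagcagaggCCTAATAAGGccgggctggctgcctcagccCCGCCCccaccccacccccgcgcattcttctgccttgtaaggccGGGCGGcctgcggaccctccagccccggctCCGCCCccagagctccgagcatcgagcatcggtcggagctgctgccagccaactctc

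No motif of the 4 was present in all of the elastic fibre windows shown. The AP-1 motif was present in 1 of the 24 windows, that of Efemp1 at -154 to -148 from the start, and in 6.75% of all 32851 windows. The TEAD motif was present in 2, of Acta2 at -146 to -141 and of Lrat, against 12.6% of all windows, and the CArG box in 1, of Myl9 at -161 to -152, against 1.47%. The Sp1 motif was present in 12 of 24, against 32.7%. These are matches of letters in a window and do not show binding, and the absence of a match, as of the strict CArG box from the Acta2 window, says only that these exact letters are not there.

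Of the 7 adhesive and matricellular genes, 3 were called higher in ICC than in p53LKO HCC. Thrombospondin 1 and 2 (Thbs1, Thbs2) and tenascin C (Tnc), glycoproteins of tissue repair, were these 3, against 13.2% of all genes. Fibronectin (Fn1), periostin (Postn), the collagen-binding protein Sparc and versican (Vcan) were not called by their brightest probe, although another Vcan probe was. Between the HCC groups 1 of 6 tested, Sparc, was called higher by its brightest probe, against 5.23% of all genes, and the median was 0.29. Another Sparc probe was lower.

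Thbs1 (mm9 chr2:117952585-117952644) had levels of -1.90, -0.98, -0.87, -0.37 and 0.23 in the p53f/f HCC, -0.75, 0.16, 1.30, -0.75 and -0.39 in the p53LKO HCC, and 3.71, 4.13, 4.13, 3.12 and 3.90 in ICC. All ICC were above all HCC, and the HCC groups overlapped. The ICC were 14.8-fold above p53LKO HCC (log2 3.88 ± 0.38, adjusted p = 6.94e-05, exact permutation p = 0.00794). Thbs2 averaged -3.46 ± 0.77, -2.12 ± 1.23 and -0.12 ± 0.60 and was 4.01-fold higher in ICC than in p53LKO HCC (adjusted p = 0.0119), and its difference of 1.34 between the HCC groups (adjusted p = 0.0917) was called without 5283 T7 (1.66, adjusted p = 0.0419), under quantile normalization (1.85, adjusted p = 0.0313) and under the spike-in scaling (2.12, adjusted p = 0.0116). Tnc was well above background on 1, 1 and 5 arrays of p53f/f HCC, p53LKO HCC and ICC, and averaged -5.28 ± 1.36 in p53LKO HCC and -1.51 ± 0.61 in ICC, a log2 difference of 3.77 (adjusted p = 0.000661). It passed the filter on dim probes through the ICC, and the size of the difference rests on HCC values that were mostly not well above background.

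Postn averaged 0.10 ± 0.73 in p53f/f HCC, -0.21 ± 1.63 in p53LKO HCC and 1.39 ± 0.19 in ICC. Its difference of 1.59 ± 0.64 between ICC and p53LKO HCC was not called (adjusted p = 0.0624), and was called without HCC 3731 T2 (2.14, adjusted p = 0.00625) and, among other settings, with all 15 arrays in 1 model. Fn1 averaged 8.04 ± 0.61, 7.64 ± 0.19 and 7.72 ± 0.23, and the 95% interval of its difference between ICC and p53LKO HCC was -0.29 to 0.44.

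Sparc and Vcan depended on the probe. The brightest Sparc probe (mm9 chr11:55208939-55208998) averaged 7.49 ± 0.62 in p53f/f HCC, 8.54 ± 0.65 in p53LKO HCC and 8.25 ± 0.20 in ICC, and the rise between the HCC groups of 1.04 ± 0.36 (adjusted p = 0.0474) was lost without each of 8 of 10 tumors, all but 3681 T1 and 5283 T7, with adjusted p of 0.0689 to 0.103 and differences of 0.91 to 1.08. The second probe rose by 1.23 ± 0.34 (adjusted p = 0.0196). The third (mm9 chr11:55207772-55207831) fell by 1.34 ± 0.13 (adjusted p = 9.84e-05), and every p53LKO HCC lay below every p53f/f HCC. The difference of the brightest probe was 1.45 with the row as a block (adjusted p = 0.0135) and 0.88 with the slide as a block (adjusted p = 0.125), and with the mean of both tumors of mouse 3717 as 1 sample it was 0.94 (adjusted p = 0.101).

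For Vcan the brightest probe (mm9 chr13:89851810-89851869) averaged 0.06 ± 0.16, -0.06 ± 0.14 and 0.06 ± 0.17, with a difference of 0.12 ± 0.15 between ICC and p53LKO HCC. Another Vcan probe (mm9 chr13:89795080-89795139) averaged -3.90 ± 0.58, -3.97 ± 1.27 and 0.57 ± 0.58, and was 23.4-fold higher in ICC than in p53LKO HCC without overlap (log2 4.55 ± 0.55, adjusted p = 0.000185). The remaining Vcan probe was not well above background on any array. The array files assign the first and the last of these probes to one RefSeq transcript of Vcan and the probe that separated the tumor types to another, whereas the 3 Sparc probes are assigned to a single transcript.

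**Figure D4:**
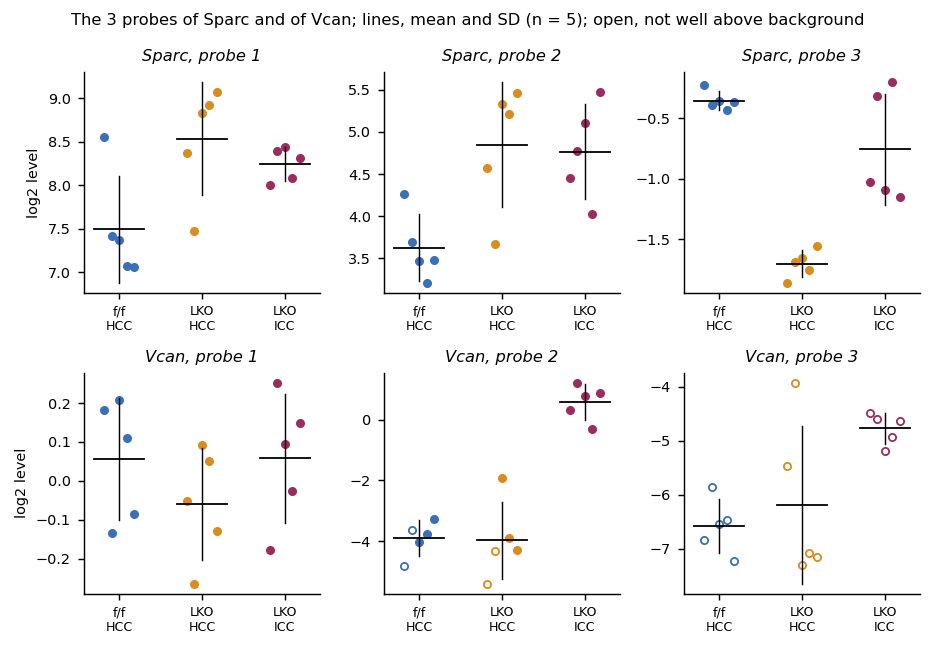
Log2 levels of the 3 probes of Sparc (top) and the 3 probes of Vcan (bottom) in each tumor of p53f/f HCC, p53LKO HCC and p53LKO ICC, with an axis of its own per panel. Lines are means and SD (n = 5), and open points are not well above background. The first and second Sparc probes are higher in p53LKO HCC than in p53f/f HCC while the last is lower, and of the Vcan probes the middle one separates ICC from HCC among those well above background.

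Of the vitamin K dependent proteins, Mgp, matrix Gla protein, an inhibitor of calcification, rose in ICC, and Gas6, the ligand of the TAM receptors, was higher in p53LKO HCC than in p53f/f HCC. Mgp (mm9 chr6:136821125-136821184) had levels of 0.96, 0.35, 0.53, -3.34 and 1.81 in the p53f/f HCC, 0.98, 0.85, 1.98, 0.20 and 2.91 in the p53LKO HCC, and 4.56, 7.005, 6.82, 5.60 and 6.24 in ICC. All ICC lay above all HCC, by 25.3-fold over the p53LKO HCC (log2 4.66 ± 0.57, adjusted p = 0.000198, exact permutation p = 0.00794). Gas6 averaged 4.45 ± 0.51 in p53f/f HCC, 5.49 ± 0.30 in p53LKO HCC and 5.01 ± 0.57 in ICC, and was 2.05-fold higher in p53LKO HCC (adjusted p = 0.0107, limma). It fell under the fold threshold without 3717 T1, 3976 T1 or 3975 T4, with differences of 0.83 to 1.00, with the row (0.91, adjusted p = 0.0472) or the slide (0.996, adjusted p = 0.0309) as a block, under quantile normalization (0.82, adjusted p = 0.0366) and under the percentile of well detected probes (0.79, adjusted p = 0.029).

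Of 16 myofibroblast genes, 7 were called higher in ICC than in p53LKO HCC (Vim, Thy1, Fap, Tnc, Thbs1, Thbs2 and Eln), against 13.2% of all genes, with a median difference of 1.41, beside 1 of 6 and -0.32 for the quiescent genes and -0.17 for all genes. That median was 0.53 where each probe had to clear the background on every array of both groups, which left 11 of the 16 genes, and 0.47 on slide 1 alone. None of the 7 belongs to the contractile machinery. In HCC of the 2 genotypes 1 of 15 tested, Sparc, was called higher by its brightest probe, against 5.23% of all genes, with a median of 0.20 beside 0.80 for the quiescent genes. Another Sparc probe went the other way.

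Averaged over the genes of a set, each centred on its mean over all arrays, the myofibroblast genes were at -0.91 to -0.20 in p53f/f HCC, -0.85 to 0.71 in p53LKO HCC and 0.78 to 1.23 in ICC. The single p53LKO HCC near the ICC was 3731 T2, which was the highest of its group for 26 of the 36 genes. The quiescent genes were at -1.31 to 0.17, -0.52 to 0.72 and -0.56 to 1.05, with overlap of all groups. The myofibroblast mean minus the quiescent mean of the same tumor, which adding a constant to an array cannot move, was -1.08 to 0.55 in p53f/f HCC, -1.32 to -0.01 in p53LKO HCC and 0.18 to 1.65 in ICC, so that all 5 ICC lay above all 5 p53LKO HCC and overlapped with the p53f/f HCC. The elastic fibre genes were at -1.75 to -0.28, -1.99 to -0.65 and 2.13 to 3.07. These means describe a choice of genes, and no test was made of them.

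**Figure D5:**
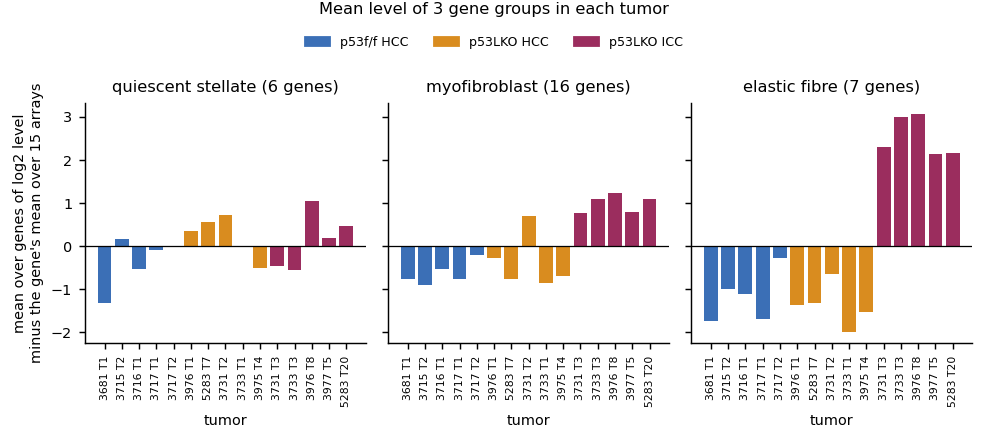
Mean over the 6 quiescent stellate, 16 myofibroblast and 7 elastic fibre genes of the log2 level minus the mean of the gene over the 15 arrays, 1 bar per tumor. Elastic fibre genes are between 2.13 and 3.07 in all 5 ICC and below 0 in all 10 HCC, and the myofibroblast genes are above 0 in ICC and in the HCC 3731 T2.

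Compared with p53f/f HCC, which differ in genotype as well as in tumor type, ICC had 21 of the 36 genes higher and 0 lower with limma, against 10.9% and 11.9% of all genes (22.8% in either direction), with a median of 1.95 beside -0.17 for all genes. This comparison shares its ICC arrays and its p53f/f HCC arrays with the ones above. By role, 5 of 5 surface and cytoskeleton genes, 6 of 7 elastic fibre genes, 4 of 5 small proteoglycans and 4 of 7 adhesive genes were called, beside 0 of 4 contractile genes and 1 of 6 quiescent genes. Mfap4 was the elastic fibre gene not called. For 20 of the 36 genes every ICC lay above every p53f/f HCC, against 12.9% of all genes. Slide 1 alone held 1 ICC and slide 2 alone 1 p53f/f tumor, so counts of calls are not given for either.

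Lists of further genes of these cells gave a mixed picture. Of 14 other genes of quiescent stellate cells, 3 were called higher and 1 lower in p53LKO than in p53f/f HCC, against 5.23% and 10.7% of all genes. The largest differences were those of Adamtsl2, which binds microfibrils (2.19 ± 0.65, adjusted p = 0.0244), and of the transcription factor gene Tcf21 (1.51 ± 0.48, adjusted p = 0.0335). In ICC 0 of the 14 were called higher than in p53LKO HCC and 3 lower with limma, against 13.2% and 15.3% of all genes, with the largest difference for the collectin gene Colec11 (-1.91 ± 0.51, adjusted p = 0.012). The medians of the list were 0.43 and 0.19.

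Among 12 tested of 14 other contractile genes, 5 had a positive difference between ICC and p53LKO HCC, and the median was -0.14. Synpo2, an actin-binding protein (5.04 ± 0.48, adjusted p = 5.48e-05), and Myh11, the smooth muscle myosin heavy chain (3.10 ± 0.45, adjusted p = 0.000457), were called higher. Tpm1 was called lower, and the shares of all genes were 13.2% higher and 15.3% lower. At an unadjusted p under 0.05 in limma, 3 were higher and 5 lower. Synpo2 was well above background on 1 of the HCC arrays. It passed the filter on dim probes through the ICC, and the size of its difference rests on HCC values mostly not well above background. In p53LKO HCC against p53f/f HCC, 2 of 12 were called higher and 1 lower, against 5.23% and 10.7% of all genes, with Mkl1, a coactivator of serum response factor, at 1.19 ± 0.20 (adjusted p = 0.00114), and with Myocd, another such coactivator, called lower but not well above background in any p53LKO HCC.

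Of the genes of fibrogenic signalling, 5 of 14 were called higher and 1 lower in ICC than in p53LKO HCC, against 13.2% and 15.3% of all genes. Cthrc1, a secreted protein of activated fibroblasts, was at least 10.3-fold higher, as it was not well above background in any p53LKO HCC. Its adjusted p of 0.000108 (limma) belongs to the difference between the values as measured, not to this bound. Spp1, osteopontin, which cholangiocytes also make, was higher by 4.73 ± 0.35 (adjusted p = 1.28e-05). In p53LKO HCC the ligand genes Pdgfb (1.99 ± 0.31, adjusted p = 0.000775) and Pdgfa (1.21 ± 0.24, adjusted p = 0.00328) were higher than in p53f/f HCC, 2 of 13 tested, against 5.23% of all genes.

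Markers of other cell types were set beside the differences between ICC and p53LKO HCC, in which 13.2% of all genes were called higher and 15.3% lower. Of 6 tested markers of portal fibroblasts and mesothelium 3 were called higher in ICC than in p53LKO HCC, among them mesothelin, Msln (6.01 ± 0.99, adjusted p = 0.000919), and Pi16 (5.29 ± 0.60, adjusted p = 0.000131). The summed linear level of the 10 genes of that list was 13.7 to 24.4 in p53f/f HCC, 13.5 to 42.6 in p53LKO HCC and 22.6 to 96.1 in ICC. All 5 fibroblast collagens were called higher in ICC, with summed levels of 11.4 to 59.8, 38.5 to 167 and 289 to 544. Hepatocyte markers, with 4 of 10 called lower and 0 higher in limma, had summed levels of 3073 to 5815, 2353 to 3070 and 860 to 2083. Of 7 tested cholangiocyte markers 3 were called higher, with summed levels of 3.11 to 6.39, 2.81 to 6.50 and 12.0 to 20.9. Endothelial markers had 1 of 8 called higher, Vwf, and summed levels of 27.8 to 45.9 in p53LKO HCC and 14.96 to 39.2 in ICC. T and B cell markers had 3 of 7 called higher and 1 lower, with summed levels of 31.3 to 100.2 and 10.7 to 18.9. Of 6 macrophage markers 0 were called with limma, the methods' t-test or the Mann-Whitney test, and 1 had an unadjusted p under 0.05. The part of these cells in the differences of the 36 genes was not tested.

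In the HCC comparison, hepatocyte markers had 1 of 10 called lower, against 10.7% of all genes, and 4 of 10 lower at an unadjusted p under 0.05 by each of limma, the methods' t-test and the Mann-Whitney test. Their median difference was -0.57, and the summed hepatocyte level of every p53LKO HCC (2353 to 3070) lay below that of every p53f/f HCC (3073 to 5815). The mean log2 level of the same 10 genes overlapped, at 6.02 to 6.73 in p53LKO HCC and 6.38 to 7.52 in p53f/f HCC. Endothelial markers had 2 of 8 called lower, with summed endothelial levels of 27.8 to 45.9 with and 32.3 to 58.5 without the deletion. Of the 5 collagens 0 were called with limma, the methods' t-test or the Mann-Whitney test, and 1 had an unadjusted p under 0.05, with a median difference of 1.04. Portal fibroblast and mesothelial markers had 0 of 7 called by the same tests, and 1 with an unadjusted p under 0.05. Cholangiocyte, macrophage and T and B cell markers had 0 of 5, 0 of 6 and 0 of 7 called by these tests, and 1 each with an unadjusted p under 0.05 in limma. Their part in the calls of Dpt, Lum, Pdgfra, Mfap4 and Mfap5 was not tested.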

How the data were processed

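Total RNA of 15 mouse liver tumors, 5 per group, was hybridised to 1-colour Agilent 8x60K arrays, 1 per tumor. The authors extracted the scanned arrays with Agilent Feature Extraction 10.7.3.1, and the deposited processed signals are background-subtracted intensity values. The authors' deposited table of log2 values (GeneSpring, settings not stated) is centred separately on HCC and on ICC arrays, with column medians from -0.33 to 0.34, so it served only as an alternative for the HCC groups.

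Spots of a probe were averaged without outlier spots, log2 was taken, and the 75th percentile of each array over the 55681 non-control probes was subtracted. Probes detected (well above background) on 3 or more arrays of a compared group were tested in limma 3.58.1 (R 4.3.3), with Benjamini-Hochberg adjustment over all probes tested. Single genes had an exact 2-sided permutation test over the 252 splits. Figures were drawn with matplotlib 3.10.9. On simulated data with 200 probes changed by 2 on the log2 scale, 69.5% were recovered between the HCC groups, 80.5% between ICC and p53LKO HCC and 71% between ICC and p53f/f HCC, of 36082, 32669 and 35698 probes.

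Groups came from the tumor titles. Replicates are separate tumors, and mouse 3717 gave 2. Values in every tumor are given for Acta2, Tagln, Lrat, Reln, Ngfr, Des, Pdgfra and Pdgfrb and for up to 8 called genes per comparison whose groups did not overlap, by moderated t, and for 2 called genes per further list, of which 1 is not reported here. The genes and lists were chosen with earlier results of these data known. Pairing of ICC and HCC comes from the mouse numbers; same-mouse tumors correlated at -0.14 to 0.07 after subtraction of group means. Alternatives changed the background correction, scaling, filter, test, probe rule, blocks and samples. The number of arrays limits the precision.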

Additional observations from a re-analysis of the deposited data

Results flagged for a closer look

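In 8 of 108 groups of 5 tumors, 1 for each gene and group, the highest or lowest tumor stood apart from the others by Dixon's ratio, where chance gives about 1 in 20, or 5.4. Among p53f/f HCC, tumor 3681 T1 stood apart for 3 genes. Its level was -3.58 for Hgf, where the others were at -1.35 to -0.51, -0.87 for Pdgfrb, where they were at 0.90 to 1.37, and 8.55 for Sparc, where they were at 7.06 to 7.41. Tumor 3716 T1 was at -1.92 for Eln, against -2.43 to -2.31, and tumor 3717 T1 at -3.34 for Mgp, against 0.35 to 1.81. Among p53LKO HCC, tumor 3975 T4 was at -0.011 for Rgs5, against 2.89 to 3.32, and tumor 3733 T1 at -1.40 for Efemp1, against 0.77 to 1.46. Among ICC, tumor 5283 T20 was at 4.01 for Gas6, against 5.16 to 5.45. The cause was not tested.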

How the results depend on the processing

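With 5 tumors per group, and 12 of the 36 genes dim on some arrays, small differences could not be called, and row and group cannot be told apart between ICC and p53f/f HCC, for which no row block was possible. Between p53LKO and p53f/f HCC, the call of Mfap4 was lost only on slide 2 alone, where no gene of the array was called, and the other 6 calls were each lost elsewhere too. Between ICC and p53LKO HCC, 12 of the 19 calls held in every alternative in which the gene was tested: Thy1, Lum, Fbn1, Fbln1, Fbln2, Eln, Mfap4, Mfap5, Tnc, Thbs1, Thbs2 and Mgp. Of these, Fbln1, Eln, Mfap5, Tnc and Thbs2 were not tested in all of them, slide 1 alone and the stricter filter on both groups being left out. The calls of Mfap5 and Tnc rest on p53LKO HCC values that were all or mostly not well above background. Slide 1 alone, which is among the alternatives, holds 1 ICC, so the ICC had no spread of its own there. The same 4 mice without a block, the lower row alone, slide 1 alone and slide 2 alone were chosen after seeing the data. The cause of the changes was not tested.

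For p53LKO against p53f/f HCC the count of higher genes was 5, with shares of all genes in brackets (5.23%). It was 3 under normexp (4.01%), 1 under the percentile of well detected probes (2.48%), 17 under the spike-in scaling (37.8%) and 2 without a filter (3.05%). It was 2 with the slide (4.94%) and 3 with the row (4.53%) as a block. By the methods' t-test it was 2 (3.37%) and by the Mann-Whitney test 1 (2.98%). It was 3 with the mean of probes (4.6%), 2 in the upper row (4.54%) and 2 on slide 1 (2.02%). With 1 tumor left out it ranged from 1 to 5 (4.02% to 6.68%). The count of lower genes was 2 (10.7%). It was 1 under normexp (4.37%), under the spike-in scaling (4.11%), under each stricter filter (3.56% and 9.99%) and on slide 1 (7.32%). With 1 tumor left out it ranged from 2 to 3 (9.39% to 11.4%). The median of the quiescent genes was 1.58 under the spike-in scaling and 0.16 on slide 2, and 0.46 to 0.93 with 1 tumor left out. That of the myofibroblast genes was 0.98 under the spike-in scaling and 0.13 to 0.41 with 1 tumor left out.

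Between ICC and p53LKO HCC the mouse as a replicate block gave 19 higher genes and 1 lower, Lrat (-1.82, adjusted p = 0.0292), and the same 4 mice without the block 18 and 1. Slide 1 gave 8 and 2, and leaving out 1 tumor 16 to 21 and 0 to 1. The quiescent median was -1.34 on slide 1 and -0.60 to -0.08 with 1 tumor left out. The myofibroblast median was 0.53 with probes well above background on all arrays, 0.47 on slide 1 and 1.05 to 2.13 with 1 tumor left out. Between ICC and p53f/f HCC the count of higher genes was 20 to 22 with 1 tumor left out, against 9.64% to 11.5% of all genes. The quiescent median was 1.22 under the spike-in scaling and -0.19 on slide 1. The myofibroblast median was 1.80 under the spike-in scaling and 1.64 with the mean of probes.

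The sign turned only for genes that were not called. For p53LKO against p53f/f HCC these were, under normexp, Tagln 0.034, Myl9 0.015, Fap 0.084 and Eln -0.080, and under the percentile of well detected probes Eln -0.049. Under the spike-in scaling they were Acta2 0.26, Tagln 0.69, Myl9 0.71, Fap 0.56, Fn1 0.38, Postn 0.48 and Vcan 0.66. In the row block and in the upper row alone they were Tagln 0.044 and Fap 0.38, with the mean of the tumors of mouse 3717 Myl9 0.0097, and on slide 1 Myl9 0.060. On slide 2 they were Lrat -0.038, Fap 0.067, Dcn -0.53, Fbn1 -0.15, Fbln1 -1.37, Fbln2 -0.30, Efemp1 -1.18, Thbs1 -0.17, Vcan 0.090 and Mgp -0.11. With 1 tumor left out Dcn ranged from -0.068 to 0.40, Fap from -0.61 to 0.41, Myl9 from -0.46 to 0.18, Postn from -0.85 to 0.27 and Tagln from -0.30 to 0.039.

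Between ICC and p53LKO HCC the turned values were Cnn1 0.054 under normexp, Sparc 0.20 and Gas6 0.0096 under quantile normalization, and Ngfr 0.13, Hgf 0.22, Myl9 0.19, Cnn1 0.15 and Sparc 0.080 under the percentile of well detected probes. They were Fn1 -0.0046 under the spike-in scaling, Cnn1 0.029 in the slide block, Des 0.014 and Sparc 0.32 in the row block, Sparc 0.19 with the mean of probes, Sparc 0.32 in the lower row, Sparc 0.077 and Vcan -0.020 on slide 1, and Ngfr 0.53 and Hgf 0.023 on slide 2. With 1 tumor left out Cnn1 ranged from -0.72 to 0.22, Dpt from -0.024 to 0.74, Hgf from -0.32 to 0.058, Myl9 from -0.43 to 0.21 and Ngfr from -0.53 to 0.070.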
